A study of Mus musculus with 14 samples.

Results

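The difference between FLExDUX4 and WT muscle was averaged over running state, as the mean of the difference in no-running controls and the difference in runners, so that both running states weighed equally. All 14 mice of the series entered this contrast, 7 FLExDUX4 and 7 WT. Per the series' design text the mice were male littermates, and triceps was the muscle in every group. Per the labels, 3 FLExDUX4 and 3 WT mice were no-running controls, and 4 FLExDUX4 and 4 WT mice had 6 weeks of wheel running. The series title names exercise in the FLExDUX4 model as the subject, and the averaged contrast asks which genes differed by genotype in the mean over both running states. It favours but does not require the same direction with and without running, since a large difference in a single running state can carry the mean. Each mouse is 1 library, numbered here by sample record. The labels give no age and name no Cre line, although the transgene of this strain is a Cre-inducible one, and they give no other allele or agent for any group.

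DUX4 is a transcription factor of the early embryo that is normally silent in adult muscle. Its misexpression in skeletal muscle causes facioscapulohumeral muscular dystrophy (FSHD). FLExDUX4 mice carry human DUX4 at the Rosa26 locus in a form that Cre inverts into the active orientation, and the strain is known for a low, leaky expression of DUX4 without Cre. The deposited gene table held 0 rows for DUX4, so the transgene itself could not be followed and the genotype labels could not be checked against it.

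The shallowest library was that of WT control 3, with 3269357 gene counts, and the deepest that of FLExDUX4 control 3, with 6995811. The level of a gene is given in CPM, read counts scaled to library size with TMM factors, and 1 count stood for 0.143 to 0.306 CPM before that scaling. The muscle was fast in every group: Myh4, the fast IIb myosin heavy chain, made up 70.9% to 98.9% of the summed counts of the 4 adult myosins. The genotypes differed by -0.893 percentage points in that share (exact permutation p = 0.839 over 1400 assignments, 2-sided). Within controls the share was 98.3% to 98.9% in WT and 93.1% to 95.8% in FLExDUX4, with no overlap (means 98.6% and 94.6%), and in runners the means were 82.7% and 84.9%, with overlap. They differed by 1.75 points in the mitochondrial share of counts (exact permutation p = 0.433; 1.09 points without FLExDUX4 control 1) and by -0.151 points in the spike-in share (exact permutation p = 0.0914), and all 4 measures had an adjusted p of at least 0.366. FLExDUX4 control 1 stood apart from the other libraries, at -67.1 on the second principal component against -6.36 to 24.1 for the others. Where leaving it out moved a printed value of a gene named by the rule by over 1.5 times, that value is given too.

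No gene passed the test in the averaged contrast. Of 11088 genes, 0 had an adjusted p under 0.05 (edgeR quasi-likelihood test, Benjamini-Hochberg), which is 0% of those tested, and the smallest adjusted p was 0.837. At an unadjusted p under 0.05 there were 418 genes (3.77%), 227 higher (2.05%) and 191 lower (1.72%) in FLExDUX4, where 554.4 would fall under that threshold by chance. DESeq2 called 1 gene, Chad, and limma-voom called 0. Without FLExDUX4 control 1 edgeR also called 0, with 394 genes at an unadjusted p under 0.05. The same fit gave 0 calls in controls alone (554 genes at an unadjusted p under 0.05, 5%), 0 in runners alone (350 genes, 3.16%) and 0 for the difference between both (537 genes, 4.84%).

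The precision set what could be seen. The standard error of the averaged log2 difference had a median of 0.25 over genes, with a 10th percentile of 0.12 and a 90th of 0.60, and the 95% interval reached, at the median, 0.50 to either side. For 7700 genes (69.4%) the whole interval lay within a log2 difference of 1 in either direction. The averaged difference itself exceeded 1 in size for 260 genes. All differences that follow are on the log2 scale, FLExDUX4 minus WT, and all belong to genes that were not called. The standard errors, given after ±, were worked back from each difference and its quasi-likelihood F statistic. The intervals rest on them.

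Genes reported to respond to DUX4 in mouse muscle had no called member, and only 2 of 7 had enough counts for a test. Sord, which encodes sorbitol dehydrogenase (chr2:122234749-122265340, + strand, GRCm38), was at 32.2, 37.6 and 41.8 CPM in the WT controls and at 44.2, 36.9 and 41.6 in the FLExDUX4 controls. In runners Sord was at 32.3, 49.9, 35.9 and 48 CPM in WT and at 61.4, 58.1, 51.8 and 43.5 in FLExDUX4, so that the genotypes overlapped in both running states. Its averaged difference was 0.25 ± 0.13, with a 95% interval from -0.01 to 0.52 (unadjusted p of 0.0597 and adjusted p of 0.998 in edgeR). Ilvbl, which encodes an acetolactate synthase-like protein, differed by -0.13 ± 0.28, with an interval from -0.70 to 0.44.

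The other DUX4-responsive genes on the list had too few counts to be tested. Wfdc3, a whey acidic protein domain gene, had 1 count in all, in a FLExDUX4 runner. Serpinb6c, a serine protease inhibitor, had 16 counts, 5 in FLExDUX4 control 3, 10 in FLExDUX4 running 1 and 1 in FLExDUX4 running 2, against 0 in the 7 WT mice. The other 4 FLExDUX4 mice also had 0. Trim36 had 22 counts, 11 in 1 WT runner and 11 in FLExDUX4 runners, and Slc15a2, a peptide transporter, had 60 counts, with 6 against 12 (WT against FLExDUX4) without running and 30 against 12 with it. Slc34a2, a phosphate transporter, had 0 counts. All 15 genes of the early-embryo programme of mouse Dux that had a row, Zscan4c and Zfp352 among them, were at 0 counts in all 14 libraries. How reads with several alignments were treated is not given, so reads shared by family members such as Zscan4a to Zscan4f may not have been counted. Genes of the FSHD region and of the machinery that silences DUX4 had a median difference of 0.06 over 9 tested members, 6 above 0, with none at an unadjusted p under 0.05. The DUX4 homeodomain motif was found in 33 of 32851 RefSeq promoter windows of 250 bases upstream of gene starts (0.1005%, both strands) and in 0 of the 115 windows of the named genes. With matches that rare, 0 was likely beforehand, so this cannot decide whether the named genes hold DUX4 sites. Only 84 of the 116 named genes had a window.

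The locus that holds the transgene was weakly expressed. Gt(ROSA)26Sor, the noncoding RNA of Rosa26 (chr6:113067428-113077333, - strand), was at 6.10, 0 and 3.31 CPM in WT controls and at 3.02, 1.50 and 8.10 in FLExDUX4 controls. Among runners it was at 3.56, 1.07, 1.83 and 3.54 CPM in WT and at 4.47, 4.58, 3.31 and 2.28 in FLExDUX4. The averaged difference was 0.50 ± 0.50, with an interval from -0.53 to 1.53 (unadjusted p of 0.327 in edgeR). It was 0.03 without FLExDUX4 control 3, 0.21 without WT control 2 and 1.01 without WT control 1. The annotation lists the gene as antisense, and with the strand setting unknown its reads could not be separated from those of an overlapping partner. The nearest tested neighbours were Setd5, a histone methyltransferase-like gene at -0.05 ± 0.15, and Thumpd3, a tRNA methyltransferase gene at -0.07 ± 0.24. Under spike-in scaling both were above 0, at 0.11 and 0.07, and without FLExDUX4 control 1 Setd5 was at -0.11. Of 51 other tested genes within 5 Mb, 16 were above 0 and 0 had an unadjusted p under 0.05, with values from -0.75 to 0.75 and a median of -0.06.

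**Figure D1:**
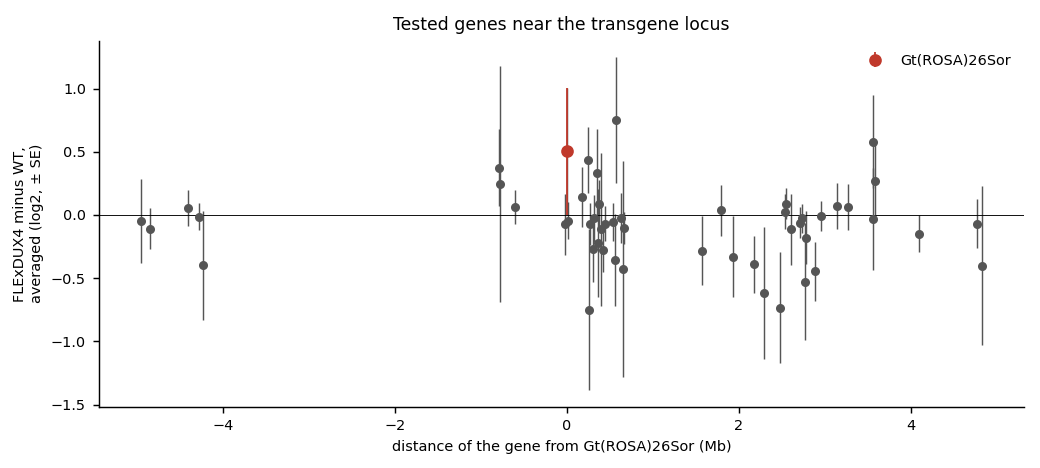
Averaged log2 difference, FLExDUX4 minus WT (points, with bars of 1 standard error), of the tested genes within 5 Mb of Gt(ROSA)26Sor, against distance in Mb. The 51 neighbours (grey) lie between -0.75 and 0.75, and Gt(ROSA)26Sor (red) is at 0.50.

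The group with the most members under an unadjusted p of 0.05 was that of tendon markers, genes of the collagen-rich tissue that joins muscle to bone. All 8 tested members of 11 had an averaged difference above 0, and 6 of them were at an unadjusted p under 0.05, against 2.05% of all genes in that direction. None was called by edgeR. The 8 genes share mice, so they are not 8 separate observations, and the list was chosen with earlier results of these data known. The list's median was 0.89, against -0.00 for all genes, with 1.33 in controls and 0.49 in runners. The direction was the same under each scaling tried, and the median was 0.76 with 4 members under an unadjusted p of 0.05 without FLExDUX4 control 1. In bulk tissue, more tendon in a sample and more RNA per tendon cell cannot be told apart, and how much tendon each dissected triceps carried was not tested. The summed level of the 11 markers was 54.2 to 101 CPM in WT controls and 122 to 238 in FLExDUX4 controls, with no overlap. It was 60.1 to 177 CPM in WT runners and 92.2 to 221 in FLExDUX4 runners, with overlap.

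Chad led the whole contrast. It encodes chondroadherin, a leucine-rich matrix protein of cartilage and tendon (chr11:94565047-94569127, + strand). Chad was at 4.84, 1.30 and 4.21 CPM in the WT controls and at 20.04, 15.2 and 19.4 in the FLExDUX4 controls, well apart. Among runners Chad was at 16, 8.88, 2.64 and 6.90 CPM in WT and at 10.7, 19.6, 19 and 7.84 in FLExDUX4, overlapping. The averaged difference of Chad was 1.56 ± 0.34, with an interval from 0.86 to 2.25 (unadjusted p of 0.000139 and adjusted p of 0.837 in edgeR). It was 2.41 in controls and 0.70 in runners, and the difference between both had an unadjusted p of 0.0186 in edgeR. DESeq2 called Chad at an adjusted p of 0.0203. Without WT running 1, the WT runner with the highest Chad level, edgeR called it too, at 1.79 with an adjusted p of 0.0125. Leaving out any other single mouse gave no call of Chad, and its difference went down to 1.35 without WT control 2. Chad was not called by limma-voom (adjusted p of 0.999) or in a fit of genotype alone, where it was at 1.29.

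Thbs4 came second. It encodes thrombospondin 4, a matrix glycoprotein of tendon and of the sites where muscle attaches to it (chr13:92751590-92794818, - strand). Thbs4 was at 30.1, 13.4 and 19.9 CPM in WT controls and at 48.6, 30.7 and 37.2 in FLExDUX4 controls. The lowest FLExDUX4 control was only just above the highest WT control. With running it was at 35, 19.4, 20.3 and 28.7 CPM in WT and at 43.5, 44.1, 33.1 and 28.4 in FLExDUX4, overlapping. The averaged difference of Thbs4 was 0.70 ± 0.18, with an interval from 0.34 to 1.06 (unadjusted p of 0.00036 and adjusted p of 0.837 in edgeR), from 0.87 in controls and 0.53 in runners.

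The 250 bases upstream of the start of both genes are shown because they lead the list, taken from RefSeq on GRCm38.p6 in the direction of transcription. Chad lies at chr11:94564797-94565046 (+ strand) and Thbs4 at chr13:92794819-92795068 (- strand). Capitals mark CANNTG, the E-box core that Scx and other helix-loop-helix factors bind.
Chad: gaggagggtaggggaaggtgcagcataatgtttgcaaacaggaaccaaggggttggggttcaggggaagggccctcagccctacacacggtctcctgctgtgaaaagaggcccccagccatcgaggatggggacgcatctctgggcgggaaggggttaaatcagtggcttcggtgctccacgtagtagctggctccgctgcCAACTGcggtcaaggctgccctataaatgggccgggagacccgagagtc
Thbs4: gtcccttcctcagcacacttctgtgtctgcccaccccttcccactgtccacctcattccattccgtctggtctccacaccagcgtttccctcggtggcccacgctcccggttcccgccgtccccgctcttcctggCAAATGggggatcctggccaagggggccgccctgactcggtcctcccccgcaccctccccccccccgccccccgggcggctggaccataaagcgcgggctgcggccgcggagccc
Each window held 1 such match, CAACTG in Chad and CAAATG in Thbs4. CANNTG was present in 66.22% of all promoter windows, so a match is common. CATCTG, an E-box of tendon genes, was present in 14.44% of windows on either strand and in neither of these.

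The remaining tested tendon markers are described because the whole list is, and were chosen after their values were seen. Cilp2, a matrix protein of cartilage and tendon, differed by 1.30 ± 0.45 (2.21 in controls, 0.39 in runners). Fmod, the collagen-binding proteoglycan fibromodulin, differed by 0.98 ± 0.39, Prg4, the lubricant lubricin, by 0.96 ± 0.42, and Kera, the proteoglycan keratocan, by 0.82 ± 0.30. Tnmd, the tendon membrane protein tenomodulin, differed by 0.62 ± 0.31 with an interval that reached 0. Scx, the transcription factor that specifies tendon, differed by 0.28 ± 0.38 and was the 1 member below 0 in controls, at -0.17 against 0.72 in runners. In controls, 7 of the 8 members had every FLExDUX4 mouse above every WT mouse, which held for 5.93% of all genes. In runners none of the 8 did (1.36% of all genes). In 7 of 8 members the difference was larger in controls than in runners. That held for 317 of the 418 genes at an unadjusted p under 0.05 in the average.

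Markers of neighbouring connective-tissue cells did not share the median of the tendon list. The 16 markers of fibro-adipogenic progenitors, the interstitial fibroblast-like cells of muscle, had a median of -0.00 with 0 at an unadjusted p under 0.05. The 27 tested genes of fibrillar and basement membrane matrix had a median of 0.03, with 4 at an unadjusted p under 0.05, all higher. These included Fmod, which both lists hold, and Col1a1, the main chain of fibrillar collagen, which differed by 0.31 ± 0.15 (0.19 in controls, 0.43 in runners) and by 0.20 without FLExDUX4 running 2.

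**Figure D2:**
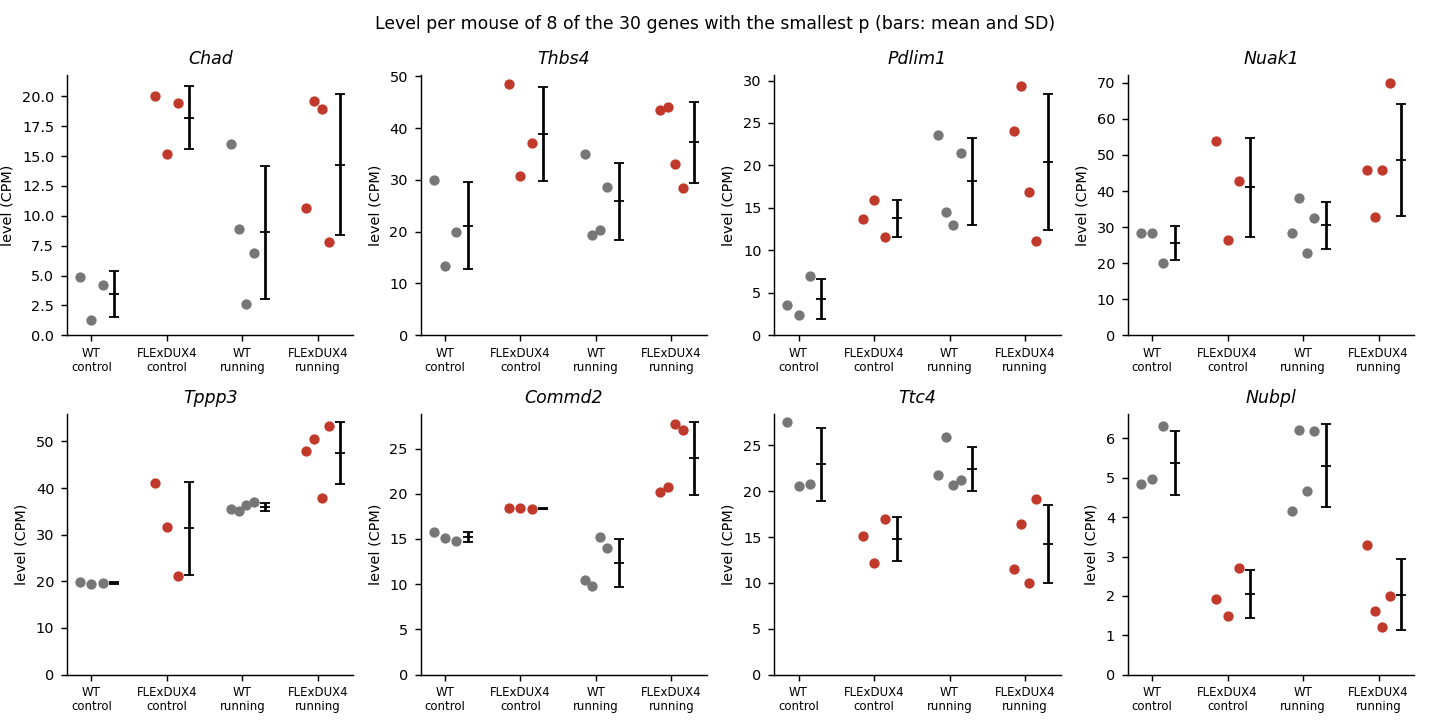
Level in CPM (vertical axis, from 0) of 8 genes in each mouse (grey WT, red FLExDUX4), by group on the horizontal axis, with the mean and SD as bars. Tppp3, Commd2, Ttc4 and Nubpl separate the genotypes in both running states, whereas Chad, Thbs4 and Pdlim1 separate them in controls only and Nuak1 in neither.

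Slow fibre genes had the largest list median, and the difference was mainly in the control mice. All 15 tested contractile and related genes of slow, oxidative fibres had an averaged difference above 0, from 0.13 to 2.22, with 3 at an unadjusted p under 0.05 and none called. Only 11 of the 15 were above 0 in both running states, and in runners the values ran from -0.30 to 0.73. In controls 11 members had every FLExDUX4 mouse above every WT mouse (5.93% of all genes), and in runners 0 did (1.36% of all genes). The median was 1.47, from 2.22 in controls and 0.28 in runners. In all 15 the difference was larger in controls than in runners. That held for 317 of the 418 genes at an unadjusted p under 0.05 in the average. The 15 genes share mice, so they are not 15 separate observations. Their summed level over the 16 listed genes was 59.9 to 72.1 CPM in WT controls and 240 to 579 in FLExDUX4 controls, apart. In runners it was 183 to 930 CPM in WT and 97.1 to 1193 in FLExDUX4, where the spread within a genotype exceeded the difference between genotypes. The median was 1.00 without FLExDUX4 control 3 or without FLExDUX4 running 2, and in the latter case 14 of 15 were above 0. It was 0.66 in a fit of genotype alone and 0.74 with 1 surrogate variable, with 14 of 15 above 0 in each. Without FLExDUX4 running 4, the runner with the lowest sum, 9 members had an unadjusted p under 0.05.

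Pdlim1 had the smallest p of the slow fibre list. It encodes a PDZ and LIM domain protein of the actin cytoskeleton (chr19:40221173-40271842, - strand). Pdlim1 was at 3.58, 2.38 and 6.92 CPM in WT controls and at 13.7, 16 and 11.6 in FLExDUX4 controls. In runners it was at 23.5, 14.6, 13 and 21.4 CPM in WT and at 24.1, 29.3, 16.9 and 11.1 in FLExDUX4. The groups were apart in controls only, and the averaged difference of 0.94 ± 0.24 (unadjusted p of 0.000367 and adjusted p of 0.837 in edgeR) joined 1.71 in controls with 0.16 in runners (unadjusted p of the difference between both 0.00234). A fit of genotype alone gave 0.50 for Pdlim1.

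Myom3, the M-band protein of slow and intermediate fibres, also had groups that were apart in controls only. It was at 0.841, 1.30 and 0.301 CPM in WT controls and at 10.7, 9.48 and 14.8 in FLExDUX4 controls. With running, Myom3 was at 42.2, 14.7, 5.68 and 19.8 CPM in WT and at 16.9, 28.3, 15.4 and 7.41 in FLExDUX4. The average of 1.72 ± 0.51 was made of 3.74 in controls and -0.30 in runners. It was 0.82 in the additive model of genotype plus running and 0.24 in a fit of genotype alone. Without WT running 1, the runner with the highest level, edgeR called Myom3 at 2.03 with an adjusted p of 0.0229. Myh7, the slow myosin heavy chain, differed by 1.72 ± 1.03, with an interval from -0.56 to 4.00. Myh7 was at 0.95 without FLExDUX4 control 3, at 0.97 in a fit of genotype alone and at 0.92 with 1 surrogate variable.

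**Figure D3:**
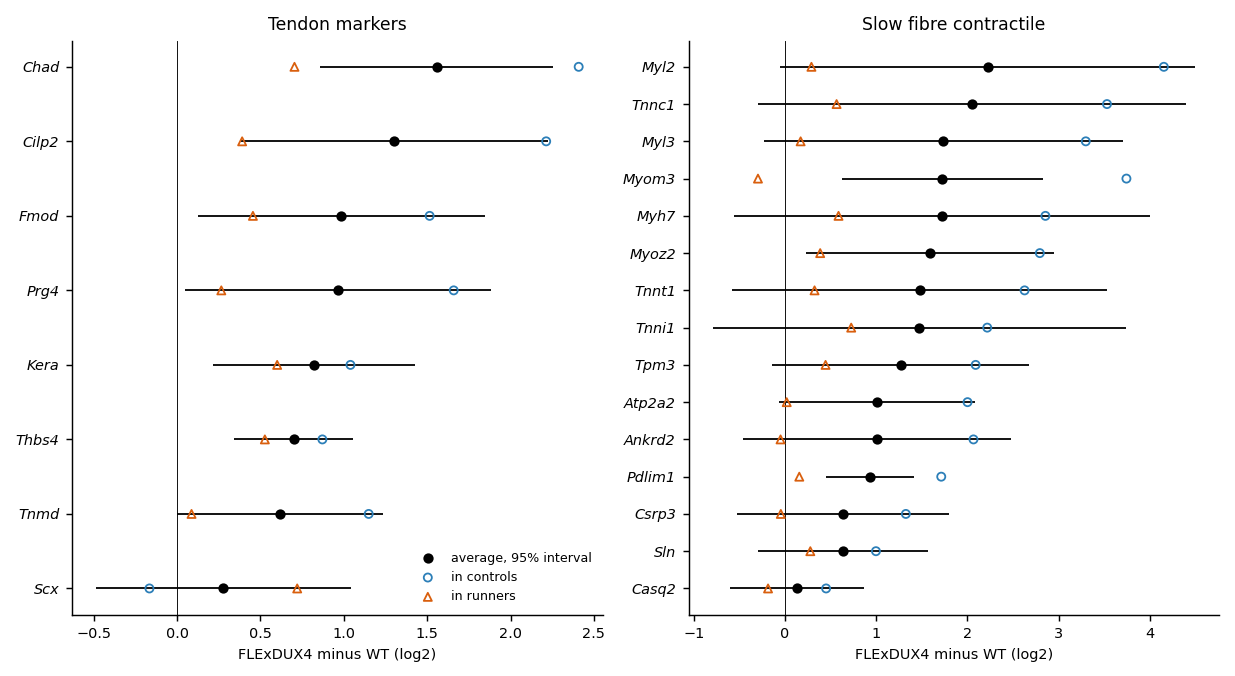
Averaged log2 difference, FLExDUX4 minus WT, with its 95% interval (black), and its components in controls (blue circles) and runners (orange triangles), for the 8 tested tendon markers (left) and the 15 tested slow fibre genes (right). Averages lie between 0.28 and 1.56 on the left and between 0.13 and 2.22 on the right, and the control value exceeds the runner value for every gene shown except Scx.

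Myh2 and Myh1, myosin heavy chains of fast fibres, had a difference of larger size in controls than in runners. Myh2, the IIa myosin heavy chain of oxidative fast fibres, was at 54.0 to 79.5 CPM in WT controls and at 457 to 593 in FLExDUX4 controls, but at 149 to 2349 in WT runners and at 186 to 1646 in FLExDUX4 runners. Its average of 1.35 ± 0.59 joined 2.99 with -0.28, and it was 0.15 in a fit of genotype alone. Myh1, the IIx myosin, differed by 0.65 ± 0.35 (1.46 and -0.16) and by 0.14 in a fit of genotype alone, and Myh4, the IIb myosin, by -0.05 ± 0.20 (-0.21 and 0.11). The sign of Myh4 turned under spike-in scaling, to 0.11, and without FLExDUX4 control 1 it was at -0.09.

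Regulators of mitochondrial biogenesis and endurance, as a list, stood near the median of all genes. The 29 tested members had a median of -0.01, with 0.05 in controls and -0.04 in runners. Of these, 14 were above and 15 below 0, and 3 were higher and 0 lower at an unadjusted p under 0.05. The median turned to 0.14 under spike-in scaling, which moved that of all genes to 0.14 as well. Ppara, a nuclear receptor that drives fatty acid oxidation, differed by 0.90 ± 0.25 (unadjusted p of 0.000968 and adjusted p of 0.837 in edgeR), from 1.71 in controls and 0.10 in runners. Ppara was at 4.21, 4.10 and 4.81 CPM in WT controls and at 12.9, 16.2 and 13.8 in FLExDUX4 controls, and overlapped in runners. Ppargc1a, which coactivates mitochondrial biogenesis genes, had a difference of 0.30 ± 0.13 (0.58 and 0.02). Ldhb, the heart-type lactate dehydrogenase, differed by 1.08 ± 0.51 (2.66 and -0.50), by 0.58 in the additive model and by -0.12 in a fit of genotype alone.

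Nuak1 had nearly the same difference in both running states. It encodes a kinase related to AMPK (chr10:84370905-84440597, - strand). Nuak1 was at 28.4, 28.3 and 20.2 CPM in WT controls and at 53.8, 26.4 and 42.8 in FLExDUX4 controls. In runners it was at 28.3, 38.2, 22.9 and 32.6 CPM in WT and at 45.9, 32.8, 45.8 and 69.8 in FLExDUX4. Both states overlapped in part. The average was 0.67 ± 0.17, with an interval from 0.33 to 1.02 (unadjusted p of 0.000391 and adjusted p of 0.837 in edgeR), from 0.67 in controls and 0.68 in runners.

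Tppp3 and Commd2 had every FLExDUX4 mouse above every WT mouse of the same running state. Tppp3, a tubulin-binding protein also known from tendon sheath cells (chr8:105467493-105471526, - strand), was at 19.8, 19.4 and 19.6 CPM in WT controls and at 41.2, 31.7 and 21.2 in FLExDUX4 controls. In runners Tppp3 was at 35.4, 35, 36.3 and 37 CPM in WT and at 48, 50.6, 37.9 and 53.3 in FLExDUX4, and it averaged 0.53 ± 0.14. Commd2, a COMM domain gene (chr3:57644349-57651715, - strand), was at 15.8, 15.1 and 14.7 CPM in WT controls and at 18.4, 18.5 and 18.3 in FLExDUX4 controls. In runners Commd2 was at 10.5, 9.77, 15.2 and 14 CPM in WT and at 20.2, 20.7, 27.7 and 27.1 in FLExDUX4. Its average of 0.61 ± 0.17 joined 0.27 in controls with 0.95 in runners. In the authors' deposited table Commd2 was the 1 gene called between genotypes in runners, with a log2 fold change of 0.84 and an adjusted p of 0.043.

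Further genes with a difference above 0 in both running states had various functions. Nbl1, a secreted antagonist of BMP signals, differed by 0.75 ± 0.21 (0.68 and 0.82), and Scara3, a scavenger receptor, by 1.20 ± 0.34 (1.35 and 1.06). Ccni, cyclin I, differed by 0.47 ± 0.14, Ndrg1, a stress-responsive gene, by 0.71 ± 0.22, and Mrps26, a mitochondrial ribosomal protein, by 0.50 ± 0.16. Jcad, an endothelial junction protein, differed by 0.81 ± 0.22 (1.10 and 0.52), and Zfp644, a zinc finger protein, by 0.39 ± 0.12. Other averages came mostly from controls. Dach2, a transcriptional regulator in muscle, differed by 1.164 ± 0.35 (2.17 and 0.16) and by 0.62 in a fit of genotype alone, Phldb1 by 0.71 ± 0.21 (1.33 and 0.08), Acta2, smooth muscle actin, by 0.54 ± 0.17 (1.00 and 0.09), and Cygb, the globin cytoglobin, by 0.64 ± 0.19 (1.02 and 0.25).

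Among genes below WT, Ttc4 and Nubpl had the same difference in both running states. Ttc4 encodes a cochaperone of Hsp90 (chr4:106662256-106678944, - strand). It was at 27.6, 20.5 and 20.8 CPM in WT controls and at 15.1, 12.2 and 17 in FLExDUX4 controls. In runners Ttc4 was at 21.8, 25.9, 20.7 and 21.2 CPM in WT and at 11.5, 16.4, 9.94 and 19.1 in FLExDUX4. All FLExDUX4 mice were below all WT mice of their running state, and the average was -0.64 ± 0.18 (-0.63 and -0.64; unadjusted p of 0.000934 and adjusted p of 0.837 in edgeR).

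Nubpl, an assembly factor of respiratory complex I (chr12:52097737-52312744, + strand), was low throughout. It was at 4.84, 4.97 and 6.32 CPM in WT controls and at 1.92, 1.50 and 2.70 in FLExDUX4 controls. In runners Nubpl was at 4.16, 6.22, 4.67 and 6.19 CPM in WT and at 3.3, 1.61, 1.2 and 2 in FLExDUX4. It had no overlap in either state, and the average was -1.35 ± 0.37, with -1.35 in controls and -1.35 in runners (unadjusted p of 0.000774 and adjusted p of 0.837 in edgeR). The nuclear respiratory chain genes as a list had a median of 0.01 over 78 tested members.

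Other genes below WT are given singly. Ccnl1, a cyclin tied to splicing, differed by -0.58 ± 0.17 (-0.59 and -0.57), and C330018D20Rik by -0.95 ± 0.28 without overlap in either state. Cpeb2, a regulator of mRNA translation, differed by -0.62 ± 0.20, and Pak1, a kinase of the cytoskeleton, by -0.55 ± 0.18. Tnfaip2, a TNF-induced gene, differed by -0.44 ± 0.13, mostly from runners (-0.19 in controls and -0.70 in runners). Hsph1, a heat-shock chaperone, differed by -0.35 ± 0.13 (-0.33 and -0.38), and Prdx3, the mitochondrial peroxiredoxin, by -0.33 ± 0.13 (-0.27 and -0.39). Prdx3 was at -0.21 without FLExDUX4 control 1 and at -0.17 under spike-in scaling. The list of nonsense-mediated decay and splicing genes had a median of -0.05 over 23 tested, with 0 higher and 1 lower at an unadjusted p under 0.05. The antioxidant list, which holds Prdx3, had a median of 0.01 over 25, with 15 above 0. Its other member at an unadjusted p under 0.05, Cat, which encodes catalase, was above WT, at 0.34 ± 0.14 (0.77 in controls and -0.09 in runners).

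Several genes with small p rested on few reads or uncertain counting, and no fold is given for them. Myl10, a myosin regulatory light chain, was at 0 in the 3 WT controls and at 1.37, 1.25 and 3.47 CPM in the FLExDUX4 controls, and at 0.178 to 3.54 in WT runners against 0.855 to 4.58 in FLExDUX4 runners. Gm43793 was at 0.631 to 4.51 CPM in WT controls and at 0 to 0.249 in FLExDUX4 controls, and at 1.77 to 3.20 against 0 to 0.903 in runners. Tmem29 was at 1.89 to 3.67 CPM in WT controls and at 0.249 to 1.42 in FLExDUX4 controls, and at 2.13 to 3.17 against 0.143 to 0.807 in runners. AC125206.2 was at 0 to 0.301 CPM in WT controls and at 0.748 to 2.47 in FLExDUX4 controls, and at 0 to 0.531 against 0 to 3.85 in runners. Erdr1, which has near-identical copies on the sex chromosomes and so uncertain counts, was at 3.61 to 15.4 CPM in WT controls and at 1.65 to 4.37 in FLExDUX4 controls. Each of these genes, Erdr1 included, had the same direction in runners, for which the average selects. Of the first 4, Gm43793 and Tmem29 had no overlap there. These 2 passed the low-count filter only through the WT mice, and AC125206.2 only through the FLExDUX4 mice. Their direction and separation are therefore not evidence of a genotype difference.

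The controls and the runners share no mouse, so the 2 differences could be set against each other. Over the 11088 genes, 5319 (48.0%) had the same sign in both, and the differences had a Pearson r of -0.02 and a Spearman rho of -0.04 across genes, which are not independent of each other. Of the 554 genes at an unadjusted p under 0.05 in controls, 260 (46.9%) had the same sign in runners. Of the 350 in runners, 151 (43.1%) had the same sign in controls. There were 30 genes under 0.05 in both, 15 with the same sign and 15 with opposite signs. The 15 with the same sign made up 2.71% of the control genes and 4.29% of the runner genes, and included Thbs4, Nuak1, Tppp3, Nubpl, Nbl1, Ttc4, Scara3, Ccni, Ccnl1 and Mrps26.

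Of the 15 with opposite signs, Pim3 had the smallest p in controls and is named after its values were seen. It encodes a serine/threonine kinase. Pim3 was at 24.6, 18.1 and 15.6 CPM in WT controls and at 39.2, 71.6 and 33.4 in FLExDUX4 controls. In runners Pim3 was at 27.5, 53.5, 45.3 and 34.9 CPM in WT and at 25.1, 34.2, 31.3 and 27.1 in FLExDUX4. The difference was 1.29 in controls and -0.46 in runners, so that the average of 0.41 ± 0.17 describes neither state. Its interaction had an adjusted p of 0.199 in edgeR, the smallest of all genes. The authors' deposited table called Pim3 alone in controls, at a log2 fold change of 1.05 and an adjusted p of 0.0219.

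**Figure D4:**
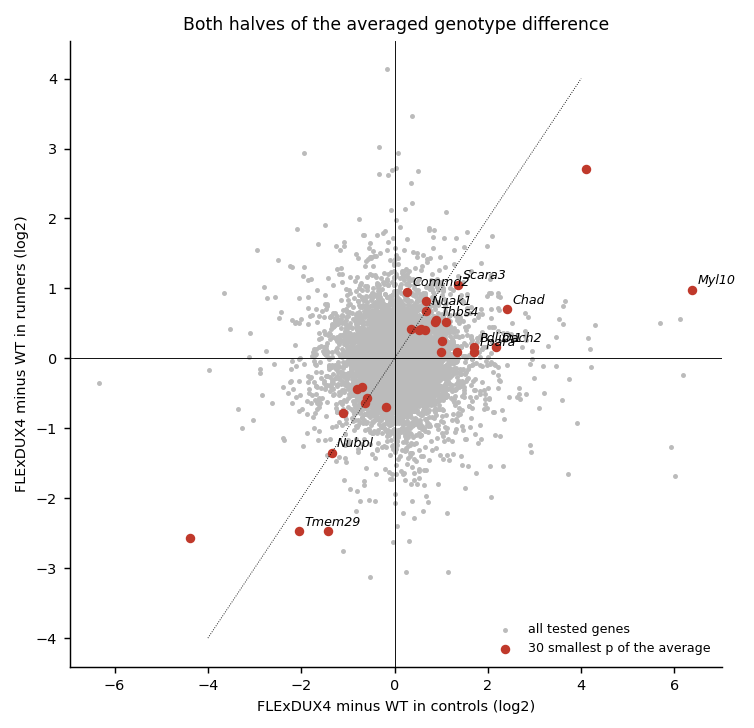
Log2 difference, FLExDUX4 minus WT, in runners (vertical) against controls (horizontal) for the 11088 tested genes (grey) and the 30 genes with the smallest p of the average (red), with a dotted line of equal values. Of all genes 48.0% have the same sign in both. The difference is larger in controls for 22 of the 30 marked genes, and for 317 of the 418 genes at an unadjusted p under 0.05 in the average.

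The average favours genes that differ in the same direction, so the leading genes could not be used as evidence of that. Of the 30 genes with the smallest p, 20 were higher and 10 lower in FLExDUX4, and 30 had the same sign in both running states. The difference was larger in controls for 22 of the 30, and for 317 of the 418 genes at an unadjusted p under 0.05. Controls had 3 mice per genotype and runners 4. The contrast itself selects for a shared sign. The unadjusted p of the interaction was under 0.05 for 7 of the 30. Their adjusted p ran from 0.837 to 0.998. Without FLExDUX4 control 1 all 30 kept their sign, and 0 moved by over 1.5 times.

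A count that uses the mice rather than the fit gave few genes. In 19 genes (0.171%) all FLExDUX4 mice lay on the same side of all WT mice in both running states, 9 above (0.0812%) and 10 below (0.0902%). Over the 1400 assignments of genotype within running state, a gene would do this by chance at a rate of 0.00143, as a fraction. The count was thus near that of chance, and the genes are listed without being read as genotype differences. The 7 among the 30 smallest p were Tppp3 and Commd2 above, and Gm43793, Nubpl, Ttc4, Tmem29 and C330018D20Rik below. The other 12 are named after their values were seen. Above WT were Lpin3, a phosphatidate phosphatase, with 1.92 ± 0.65, Dmrt2, a transcription factor of somite development, with 1.68 ± 0.60, Vps54, a tethering factor of vesicle transport, with 0.61 ± 0.24, and Plekhm1, Gm42892, Kdm5c and Brpf1. Below WT were Ttc13 with -0.77 ± 0.26, Ap1ar with -0.51 ± 0.18, and Abhd17c, a depalmitoylase, with -0.76 ± 0.28. Also below were Gnaq, a G protein subunit, with -0.35 ± 0.17, and Kremen1 with -0.31 ± 0.16.

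Most other gene groups had averages near 0. Of 40 lists with at least 3 tested genes, 36 had a median under 0.2 in size, and in 21 the medians of controls and runners had opposite signs. The fatty acid uptake and oxidation list had 0.07 as its median over 28 tested members, from 0.38 in controls and -0.26 in runners, and 1 member was above and 1 below at an unadjusted p under 0.05. Endothelial markers had 0.07, from 0.35 and -0.25, and nuclear respiratory chain genes 0.01, from 0.12 and -0.12. Fast fibre genes had -0.04 over 17, and cytosolic ribosomal proteins -0.00 over 64. Several of these signs turned. Without FLExDUX4 running 2 the fatty acid list was at -0.02, with 13 of 28 above 0, the respiratory chain list at -0.04 and the fast fibre list at 0.01. The fast fibre list was also above 0 without WT running 3 (0.02) and under spike-in scaling (0.11, with 15 of 17 above 0), and in a fit of genotype alone the fatty acid and endothelial lists were at -0.05 and -0.04.

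Immune and stress genes likewise had no called member. Macrophage and myeloid markers had a median of -0.15 over 15 tested, with 4 above 0. That median was 0.00 without WT control 1, 0.05 without WT running 3 with 8 of 15 above 0, 0.02 under spike-in scaling and -0.33 without FLExDUX4 control 2. Cd68, a macrophage lysosomal protein, differed by -0.34 ± 0.61 (-1.44 and 0.75), and by -0.17 without WT control 2. Interferon and antigen presentation genes had -0.10 over 24, with 3 members above and 1 below at an unadjusted p under 0.05. Those named by the rule were Irf9, which transmits interferon signals, at 0.72 ± 0.31, and H2-D1, a class I antigen-presenting molecule, at -0.33 ± 0.14 (-0.49 without FLExDUX4 control 2). Heat-shock genes had -0.09 over 23, which turned to 0.07 under spike-in scaling. Spike-in scaling moved the median of all genes by 0.15, and so relative to all genes the list was still below.

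Genes of regeneration and muscle stem cells, often raised in dystrophic muscle, had small list medians. The 13 tested satellite cell and myogenic regulators had a median of 0.13, with Pax7, the satellite cell factor, at 0.49 ± 0.46 and Myod1, which commits cells to muscle, at 0.41 ± 0.24. Over mice left out, Pax7 ran from 0.15 without FLExDUX4 running 4 to 0.93 without WT control 3, and Myod1 from 0.24 without FLExDUX4 control 2 to 0.59 without WT running 1. The 14 regeneration genes had 0.07, with members from -1.24 to 1.50, among them Runx1, a factor raised in denervated muscle, at 0.82 ± 0.36 (0.51 and 1.13) and Myl4, the embryonic light chain, at -1.24 ± 0.65. Atrophy genes had 0.08 over 19. Cdkn1a, a cell-cycle inhibitor downstream of p53, differed by 0.07 ± 0.26, by -0.03 in limma-voom and by 0.12 without FLExDUX4 control 1. Schwann cell and nerve markers had the third largest median, 0.33 over 7, with 0.54 in controls and 0.09 in runners. It was 0.15 over 8 tested without FLExDUX4 control 1 and 0.17 without WT control 1.

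**Figure D5:**
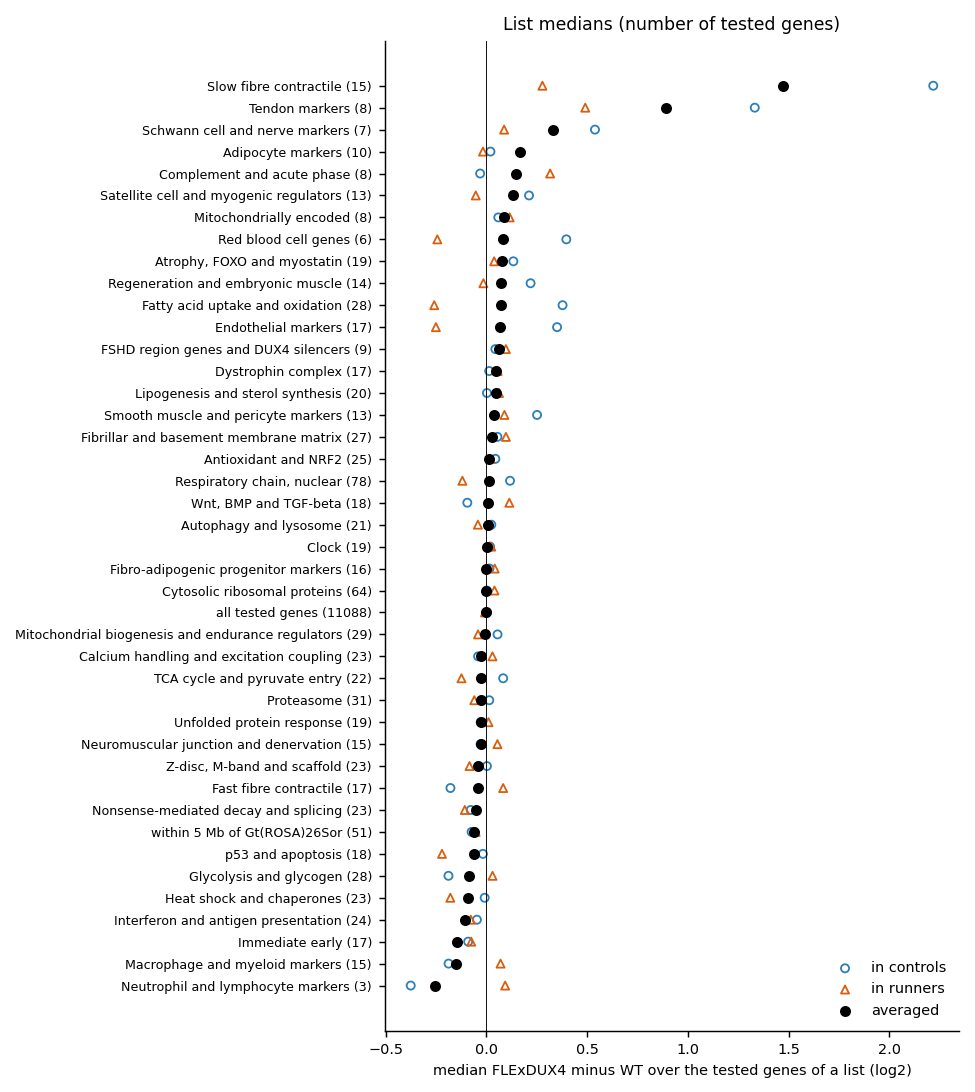
Median log2 difference, FLExDUX4 minus WT, over the tested genes of each list (number in parentheses), averaged (black), in controls (blue circles) and in runners (orange triangles). The slow fibre (1.47) and tendon (0.89) lists lie apart from the others, of which most lie within 0.2 of 0, and for both the control value is above the runner value.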

How the data were processed

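Gene expression was measured by sequencing the 3′ ends of polyadenylated RNA (QuantSeq FWD libraries) in the triceps of 14 mice. The authors deposited raw read counts per gene and mouse, not normalized, together with their log2 fold changes and adjusted p-values for pairs of groups. The submitters' processing notes name STAR 2.5.3a and featureCounts 1.6.2 (Subread), with cutadapt 1.16 and FastQC 0.11.7, and DESeq2, and as builds GRCh38 and GRCm38. Which annotation release was used, whether strand was counted and how reads with several alignments were treated is not given in the sources used here. GENCODE M21 (GRCm38) held 52403 of the 52550 gene identifiers.

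The 92 ERCC and 7 SIRV spike-in rows were left out of library sizes and tests. The counts were scaled with TMM factors and fitted with edgeR 4.0.16 in R 4.3.3 (quasi-likelihood, robust, 1 mean per group, filterByExpr with a minimum count of 10). The contrast was the mean of the FLExDUX4-minus-WT differences in controls and in runners. Calls needed an adjusted p (Benjamini-Hochberg, over the 11088 genes tested) under 0.05. The fit was tested on simulated data. The 4 library measures were compared with exact permutation tests, with genotype labels permuted within running state.

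Genes were named by a rule: called genes, the 30 smallest p, the 2 smallest p of each of the 40 gene lists (of 42) with at least 3 tested members, and a fixed set around DUX4 and muscle. The contrast, the lists and the rule were chosen with earlier results of these data known. Alternatives were DESeq2 1.42.0, limma-voom (limma 3.58.1), RLE, upper quartile and spike-in scaling, other low-count filters, no robust estimate, an additive model, genotype alone, 1 surrogate variable from sva 3.50.0, a threshold of 0.1, counts without mitochondrial genes and Gm42418. Each mouse was also left out singly. After seeing the data, 1 more was added, which left out WT control 1 and WT running 1, whose title numbers have fewer digits than the others. Promoter windows were taken from RefSeq (GRCm38.p6), which held one for 84 of the 116 named genes.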

Additional observations from a re-analysis of the deposited data

Results flagged for a closer look

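In the groups of 4 runners, 1 mouse lay far from the other 3 in 12 of 240 sets (a gap, over the range, above Dixon's 95% critical value). A set was a named gene or a library measure in 1 group, and the flagged sets were all genes. Chance flags about 1 in 20 such sets, which is 12 here. In FLExDUX4 running 2, Nbl1 was high at 34.2 CPM (the others 19.2 to 21.0), S100a8 was high at 4.84, Bpgm was low at 33.1 and Dnmt1 was low at 0.269. Pak1 was high in FLExDUX4 running 3, at 24.1 CPM (the others 18.2 to 19.05), and Tnfaip2 was low in FLExDUX4 running 1, at 68.6 CPM (the others 102 to 109). Among WT runners, Mrps26 was high in mouse 1 at 23.4 CPM (the others 15.4 to 16.5) and Setd5 was low there at 19.8. In WT running 2, Trp53inp1 was high at 21.1 CPM and Ier3 was low at 2.13. Cbx3 was high in WT running 3 at 14.6 CPM, and Upf2 was low in WT running 4 at 23.2.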

How the results depend on the processing

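The count of called genes was 0 under RLE, upper quartile and spike-in scaling, limma-voom, no robust estimate, a filter of at least 1 CPM in 3 mice, the additive model, genotype alone, a threshold of 0.1 and counts without mitochondrial genes and Gm42418. DESeq2 called 1 gene, 1 higher. Without a low-count filter edgeR called 8, 5 higher and 3 lower, and 11 for the interaction, over 20938 genes. The 8 were Chad, Erdr1, F830016B08Rik, Myom3, Nuak1, Pdlim1, Rasd2 and Thbs4. With 1 surrogate variable edgeR called 4, 3 higher and 1 lower (Chad, Erdr1, Myom3 and Myoz2), and 2 for the interaction. Without WT control 1 and WT running 1 it called 2, both higher (Chad and Thbs4), and 2 for the interaction. Spike-in scaling gave 1 for the interaction. Leaving out 1 mouse gave 0 to 2 called, 0 to 2 of them higher, and 0 to 1 for the interaction. The 2 were called without WT running 1, and the 1 without FLExDUX4 control 3, WT running 1 or WT running 3. The causes were not tested. The spike-in share differed by -0.200 to -0.111 points over mice left out, and at -0.200, without FLExDUX4 control 3, the exact permutation p was 0.0486.

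Of the 116 named genes, 105 kept their sign in every setting, the 30 with the smallest p among them. Signs turned under spike-in scaling for Psmb3 (0.0073), Ndufa1 (0.0022), Nfatc3 (0.026), Bpgm (0.0063), Setd5 (0.108), Thumpd3 (0.067) and Myh4 (0.107). Cdkn1a turned in limma-voom (-0.034), the additive model (-0.027) and genotype alone (-0.145), where Ldhb did too (-0.120). Myh4 turned with 1 surrogate variable (0.127), and Ilvbl without WT control 1 and WT running 1 (0.016). Leaving out 1 mouse gave -0.179 to 0.228 for Cdkn1a, -0.110 to 0.044 for Setd5, -0.189 to 0.142 for Thumpd3, -0.133 to 0.059 for Myh4 and -0.960 to 2.57 for Cidea. The cause was not tested. Depth limited genes of a few CPM, where 1 count was up to 0.306 CPM. No paired analysis was possible because the labels give no replicate numbers that groups share.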
